A study of Mus musculus with 12 samples.

Results

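The genes described here are 9 targets of the ERK kinases that are used as readouts of ERK activity: the phosphatases Dusp4, Dusp5 and Dusp6, the Sprouty genes Spry1, Spry2 and Spry4, the Sprouty-related gene Spred1, and the ETS transcription factors Etv4 and Etv5. They were taken as the non-control probes whose gene name on the array was one of these 9 symbols. Of the 9 listed genes, 8 were found, on 14 probes, out of 18475 genes tested. Dusp5 had no probe by name in the scanner files used here and has no value below. The 8 genes were described in mouse embryonic stem cells of strain 129 on 12 one-colour arrays in 6 groups of 2. Undifferentiated cells were the control, and their sample titles name LIF, the cytokine that holds mouse embryonic stem cells undifferentiated. The other groups were embryoid bodies (EB), which are suspended clusters of cells, at days 1, 3 and 4, and monolayer cultures (ML), grown attached, at days 1 and 3. No transgene, deletion or inhibitor is named for any group. The 2 arrays of a group are labelled clone 1 and clone 2 and, per the design text, come from separate experiments by different persons, so p-values cover only the spread between such pairs, which may be partly technical.

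ERK is the last kinase of a cascade that runs from FGF receptors through RAS, RAF and MEK. Active ERK switches on genes whose products then restrain the cascade: DUSP phosphatases remove the phosphates that activate MAP kinases, and Sprouty and SPRED proteins act upstream at RAS and RAF. ETV4 and ETV5 are ETS factors of the PEA3 group that carry FGF signals to the genome, and in mouse embryonic stem cells FGF and ERK signalling is known for driving the exit from self-renewal.

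The signal of each gene is given as log2 of its intensity over the 75th percentile of its array, so 0 is the level of that percentile. Levels of different genes come from different probes and were not compared. On each array 52.1% to 63.8% of spots were well above background, the software's flag for signal over the local background, and the 75th percentile lay between 326 and 596 intensity units. Stem cell markers (8 measured, given as log2 of their summed relative signal) went from 9.41 and 9.61 in undifferentiated cells to 5.02 and 5.57 at EB day 4. The 5 primitive streak and mesoderm markers were at -2.09 and -1.72 in undifferentiated cells and at 5.2 and 5.88 at EB day 4. Nanog, also on the list of stem cell markers, was not among the genes tested. The 2 undifferentiated arrays had their own slide and scan day, and so did the 2 EB day 4 arrays, which were read on another scanner. The other 8 arrays shared a scan day, with EB on one slide and ML on another. Differences that involve undifferentiated cells or EB day 4 therefore cannot be told apart from slide and scan day. The same holds for EB against ML and slide. On the 4 groups of that shared day the 10 spike-in probes averaged 1.09 to 1.29 log2 units brighter, relative to the 75th percentile, than in undifferentiated cells, and EB day 4 differed by 0. The part of this in the results was not tested.

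The 8 genes did not follow 1 course. Relative to undifferentiated cells Dusp4 was called higher in all 5 differentiated groups on the probe used for the gene. Its second probe passed the test at EB days 3 and 4 only. In the same comparisons Dusp6 was higher at day 3 in both culture formats, and Etv5 was lower at day 3 in both formats and lowest at EB day 4. On the probes used for the genes, the Sprouty genes, Spred1 and Etv4 passed the test against undifferentiated cells in no group. At EB day 4 a further Spry2 probe was called lower, and a further Spred1 probe, named so only in an older annotation, was called higher. A further Spry4 probe was also called lower, on EB day 4 readings not well above background. From EB day 3 to EB day 4 the means of all 8 genes went down on the probes used for them. Spry2, Spry4 and Etv5 passed the test there, and the second Dusp4 probe gave 0.21. A gene was called when its Benjamini-Hochberg adjusted p from limma, over all 18475 genes, was under 0.05.

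Counted by comparison, 1 of 8 genes was called at EB day 1 against undifferentiated cells, where 13.2% of all genes were called and 7.83% were called higher, as this gene was, and 1 of 8 at ML day 1 (17.8% called, 11.3% higher). At EB day 3 the count was 3 of 8, with 2 higher and 1 lower (23.2% of all genes called, 12.6% higher and 10.6% lower), and at ML day 3 also 3 of 8, with 2 higher and 1 lower (23.1%, 12.4% and 10.8%). At EB day 4 it was 2 of 8, 1 in each direction (40.5%, 18.6% higher and 21.9% lower). The median log2 change of the 8 genes was 0.74 at EB day 1 against 0.09 for all genes, 0.4 against 0.13 at ML day 1, 0.68 against 0.05 at EB day 3, 0.09 against 0.02 at ML day 3, and -0.59 against -0.05 at EB day 4. Applied to 8 genes, the shares of all genes come to 1.06, 1.42, 1.86, 1.85 and 3.24 called genes, in the order of EB day 1, ML day 1, EB day 3, ML day 3 and EB day 4, so the counts set the 8 genes little apart. The arrays of the groups were separate for 7 of 8 genes at EB day 1 (64.7% of all genes), and for 3 or 4 of 8 in the other comparisons with undifferentiated cells (56.4% to 73.9%).

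**Figure D1:**
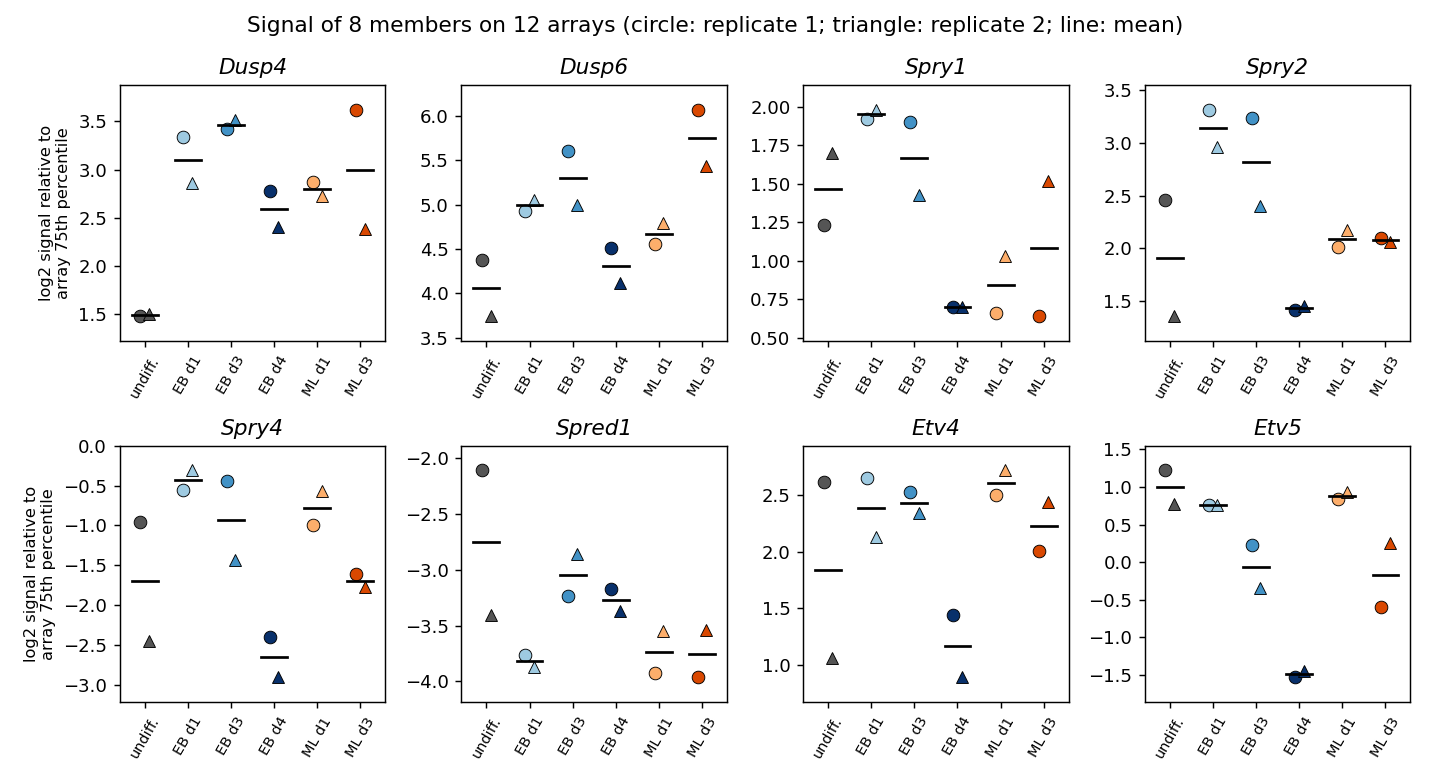
Signal of the 8 measured genes (y axis: log2 relative to the array's 75th percentile, with its own range for each gene) in the 6 groups (x axis); circles are replicate 1, triangles replicate 2 and lines the mean of both. Dusp4 is lowest in undifferentiated cells at 1.49, and Etv5 is lowest at EB day 4 at -1.49.

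Dusp4 encodes a nuclear phosphatase of MAP kinases. Its signal was 1.48 and 1.5 in the undifferentiated arrays, 3.34 and 2.86 at EB day 1, 3.42 and 3.51 at EB day 3, 2.78 and 2.4 at EB day 4, 2.87 and 2.73 at ML day 1, and 3.62 and 2.38 at ML day 3. Both undifferentiated arrays lay below all 10 others, and the differentiated groups overlapped one another except EB day 3 with EB day 1, EB day 4 and ML day 1, and EB day 1 with EB day 4. The mean was higher by 1.97 ± 0.37 (SE, n = 2 per group) at EB day 3, a 3.92-fold difference with an adjusted p of 0.00643. At EB day 1 it was higher by 1.61 (adjusted p = 0.0247), at ML day 3 by 1.51 (0.0187), at ML day 1 by 1.31 (0.04) and at EB day 4 by 1.1 (0.0392). These 5 comparisons share the undifferentiated arrays and are not independent.

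The EB day 3 call held in all 20 alternative settings of that comparison, with log2 differences from 1.83 to 2.19 and adjusted p up to 0.0405. The EB day 1 call was lost without either array of the 2 groups (adjusted p 0.0595 to 0.153) and with the mean of both probes. The ML day 3 call was lost without undifferentiated replicate 1 (0.0591), undifferentiated replicate 2 (0.0725) or ML day 3 replicate 1, where the difference was 0.88 (0.0606), and with the 2 groups fitted alone. The ML day 1 and EB day 4 calls were the weakest, holding in 5 and 7 of 20 settings, and were lost without any 1 of the arrays of their own groups (adjusted p 0.09 to 0.157 and 0.0746 to 0.182) and without any EB day 1, EB day 3 or, for EB day 4, ML day 1 array (0.0502 to 0.0574). The ML day 1 call was also lost without either EB day 4 array (0.0571), with no filter on dim probes, with the mean of probes and with the groups alone. Both calls were lost with quantile normalization and with the authors' values, and that of EB day 4 with normexp.

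The second Dusp4 probe (A_51_P347333, chr8:35884806-35884865 in mm9) gave another course at EB day 4. It read 3.91 and 3.46 there, 3.49 and 3.47 at EB day 3, and 1.52 and 0.61 in undifferentiated cells. On this probe EB day 4 was 2.63 ± 0.54 above undifferentiated cells (adjusted p over all probes 0.00487) and 0.21 above EB day 3. The brighter probe used for the gene (A_51_P518051, chr8:35882045-35882104) gave -0.87 for EB day 4 minus EB day 3. Against undifferentiated cells the second probe was also called at EB day 3 (2.41, adjusted p over all probes 0.0132). It was not called at EB day 1 (1.46, 0.098), ML day 1 (1.06, 0.191) or ML day 3 (1.54, 0.0668). The probes thus shared the direction of the rise over undifferentiated cells, and differed in sign between EB days 3 and 4, where neither passed the test.

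Dusp6 encodes the cytoplasmic phosphatase that is specific for ERK among the MAP kinases. Its signal was 4.38 and 3.74 in undifferentiated cells, 4.93 and 5.05 at EB day 1, 5.61 and 4.99 at EB day 3, 4.51 and 4.11 at EB day 4, 4.55 and 4.79 at ML day 1, and 6.07 and 5.43 at ML day 3. The undifferentiated arrays lay below all others except those of EB day 4, with which they overlapped, and the highest array was ML day 3 replicate 1. The mean was higher than in undifferentiated cells by 1.69 ± 0.33 at ML day 3 (3.22-fold, adjusted p = 0.0077) and by 1.24 ± 0.33 at EB day 3 (2.36-fold, adjusted p = 0.0257).

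The ML day 3 call held in 19 of 20 settings and was lost with the 2 groups fitted alone (adjusted p = 0.0767). The EB day 3 call held in 16 and was lost without undifferentiated replicate 2 (difference 0.91, adjusted p = 0.139), without EB day 3 replicate 1 (0.92, 0.142), with quantile normalization and with the groups alone. With the authors' values it lay at the threshold. At day 1 Dusp6 was 0.93 above undifferentiated cells in EB (adjusted p = 0.09) and 0.61 above in ML (0.216), and at EB day 4 it was 0.25 above (0.577). None of these passed the test.

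The stretch before the start of Dusp6 is shown because Dusp6 is a direct reporter of ERK and because ETS factors, Etv4 and Etv5 among them, bind DNA at a GGAA core. The sequence is from RefSeq on GRCm38.p6 (chr10:99262981-99263230, plus strand), the 250 bases before the start site, and capitals mark GGAA on either strand.
Dusp6: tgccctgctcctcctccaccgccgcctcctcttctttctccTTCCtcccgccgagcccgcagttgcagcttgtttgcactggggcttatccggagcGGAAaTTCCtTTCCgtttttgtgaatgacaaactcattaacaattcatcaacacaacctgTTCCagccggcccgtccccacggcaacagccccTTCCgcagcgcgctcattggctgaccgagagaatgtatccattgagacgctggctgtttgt
It held 6 matches, 3 of them set apart by single bases only. Over 32851 stretches of 250 bases in the same table the median was 3 matches, and 93.4% held at least 1, so the core alone sets few promoters apart.

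Spry2 encodes a Sprouty protein that is induced by FGF and blocks RAS activation. Its signal was 2.46 and 1.36 in undifferentiated cells, 3.31 and 2.96 at EB day 1, 3.23 and 2.4 at EB day 3, 1.42 and 1.46 at EB day 4, 2.01 and 2.17 at ML day 1, and 2.1 and 2.06 at ML day 3. The EB day 1 arrays and EB day 3 replicate 1 were the highest, and the 2 arrays of EB day 4 were below all others except undifferentiated replicate 2. From EB day 3 to day 4 the mean fell by 1.37 ± 0.37 on the log2 scale (adjusted p = 0.0447), to 0.387 of its level. At EB day 1 it was 1.23 above undifferentiated cells and missed the threshold (adjusted p = 0.0594).

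The fall to EB day 4 held in 12 of 20 settings. It was lost without EB day 3 replicate 1 (-0.96, adjusted p = 0.273), without either EB day 4 array (0.154 and 0.172), without either EB day 1 or ML day 1 array (0.0667 and 0.0692), and with the groups alone. The second Spry2 probe (A_51_P445153, chr14:106291901-106291960 in mm9) also passed the test between these days, at -1.31 ± 0.31 (adjusted p over all probes 0.0273). It did not share the rise at EB day 1: it read 0.76 and 0.85 in undifferentiated cells and 0.88 and 0.56 at EB day 1, a difference of -0.09 ± 0.31. On the brighter probe the undifferentiated arrays were 1.11 apart, and on this one they were nearly equal. At EB day 4 it read -0.78 and -0.52, which was -1.45 ± 0.31 relative to undifferentiated cells (adjusted p over all probes 0.00526), where the brighter probe gave -0.47 and did not pass (0.34). Whether Spry2 was called lower at EB day 4 than in undifferentiated cells thus depended on the probe.

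The stretch before Spry2 is shown for comparison with that of Dusp6 (RefSeq, GRCm38.p6, chr14:105896820-105897069, minus strand; capitals as above).
Spry2: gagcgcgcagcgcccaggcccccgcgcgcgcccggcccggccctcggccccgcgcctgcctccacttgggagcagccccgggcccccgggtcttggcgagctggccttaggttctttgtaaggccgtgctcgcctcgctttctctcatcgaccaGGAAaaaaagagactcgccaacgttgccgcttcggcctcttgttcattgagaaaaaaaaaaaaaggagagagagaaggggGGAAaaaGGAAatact
It held 3 matches to the GGAA core, equal to the median over all stretches.

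Spry4 encodes another Sprouty protein. Its signal was -0.95 and -2.45 in undifferentiated cells, -0.55 and -0.31 at EB day 1, -0.44 and -1.43 at EB day 3, -2.4 and -2.9 at EB day 4, -1 and -0.57 at ML day 1, and -1.61 and -1.77 at ML day 3. EB day 4 was the lowest group, overlapping with undifferentiated replicate 2, and EB day 1 had the highest mean. Between EB days 3 and 4 the mean fell by 1.71 ± 0.48 (adjusted p = 0.0483), to 0.305 of its level. This call held in 7 of 20 settings. It was lost without EB day 3 replicate 1 (-1.22, adjusted p = 0.284), without either EB day 4 array (0.106 and 0.238), without any EB day 1, ML day 1 or ML day 3 array (0.0529 to 0.0744), with normexp, with quantile normalization, with the authors' values and with the groups alone.

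The dimmer Spry4 probe (A_51_P250422) was not well above background on either array of EB day 4 or of ML day 3, and was above it on both arrays of undifferentiated cells, EB day 1 and ML day 1. With each dim array set no lower than the faintest of its probes above background, its ML day 1 level was at least 2.66-fold higher than that of ML day 3 (adjusted p over all probes 0.0165). That p comes from the measured means, -4.04 and -6.12, the second of them from readings not well above background. This probe was also called lower at EB day 4 than in undifferentiated cells (adjusted p over all probes 0.018), with measured means of -6.41 and -4.89. That call rests on EB day 4 readings not well above background and is not taken as a difference. No fold is given because the faintest measurable signal at EB day 4 was above the undifferentiated level. On the brighter probe the change from ML day 1 to ML day 3 was -0.9 with separate arrays (adjusted p = 0.24).

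Spry1 encodes a Sprouty protein with a single probe on the array. Its signal was 1.23 and 1.7 in undifferentiated cells, 1.92 and 1.98 at EB day 1, 1.9 and 1.43 at EB day 3, 0.7 on both arrays of EB day 4, 0.66 and 1.03 at ML day 1, and 0.64 and 1.52 at ML day 3. EB day 1 lay above all other groups, by a narrow margin over EB day 3 replicate 1, and EB day 4 overlapped with both ML groups. From EB day 3 to EB day 4 the difference was -0.97 ± 0.32 (adjusted p = 0.0783), and EB day 1 was 1.11 ± 0.32 above ML day 1 (adjusted p = 0.313). Neither passed the test. The EB day 4 difference passed with normexp (-1, adjusted p = 0.0344) and without either ML day 3 array (0.0325), which enter only the estimate of spread.

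Spred1 encodes a membrane-bound inhibitor that recruits neurofibromin to RAS. On the probe used for the gene the signal was -2.11 and -3.4 in undifferentiated cells, -3.76 and -3.87 at EB day 1, -3.23 and -2.86 at EB day 3, -3.17 and -3.37 at EB day 4, -3.92 and -3.55 at ML day 1, and -3.96 and -3.54 at ML day 3. Undifferentiated replicate 1 was the highest array, and undifferentiated replicate 2 lay inside the range of the others. The difference from undifferentiated cells was -1.06 at EB day 1, -0.98 at ML day 1 and -0.99 at ML day 3, and none passed the test. Without undifferentiated replicate 2 these and EB day 4 were called, with differences of -1.7 at EB day 1, -1.62 at ML day 1, -1.63 at ML day 3 and -1.16 at EB day 4 (adjusted p 0.0125 to 0.0269).

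The dimmest Spred1 probe (A_51_P422996) was not well above background on either array of EB day 1, ML day 1 or ML day 3. The brightest (A_51_P119857, chr2:117007850-117007909 in mm9) carries the name Spred1 only in the older annotation of the undifferentiated and EB day 4 files. It read 0.69 and 0.06 in undifferentiated cells, 0.97 and 1.33 at EB day 3, and 1.09 and 1.07 at EB day 4. On it EB day 4 was 0.7 ± 0.25 above undifferentiated cells (adjusted p over all probes 0.0472), the opposite sign to the -0.51 of the probe used, so the Spred1 direction depended on the probe.

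Etv5 had the widest range of group means among the 8 genes, 2.48 log2 units. Its signal was 1.22 and 0.77 in undifferentiated cells, 0.76 on both arrays of EB day 1, 0.23 and -0.35 at EB day 3, -1.53 and -1.45 at EB day 4, 0.84 and 0.93 at ML day 1, and -0.6 and 0.26 at ML day 3. Undifferentiated and day 1 arrays were all above the day 3 arrays, which were all above EB day 4. The mean at EB day 4 differed from undifferentiated cells by -2.48 ± 0.31, 5.59-fold lower, with an adjusted p of 0.000447. It was also lower at ML day 3 (-1.16, adjusted p = 0.0278) and at EB day 3 (-1.05, adjusted p = 0.0399). Between EB days 3 and 4 it fell by 1.43 ± 0.31 (adjusted p = 0.0219).

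The difference between EB day 4 and undifferentiated cells was called in all 20 settings, with log2 changes from -2.96 to -1.86 and adjusted p up to 0.00558. The fall from EB day 3 to day 4 held in 15, and was lost without EB day 3 replicate 1 (-1.14, adjusted p = 0.157), without either EB day 4 array (0.0957 and 0.101), with normexp and with the groups alone. The ML day 3 call held in 17 and was lost without undifferentiated replicate 1 (-0.94, 0.116) or ML day 3 replicate 1 (-0.73, 0.129) and with the groups alone. The EB day 3 call against undifferentiated cells held in 8. It was lost without undifferentiated replicate 1 (-0.83, 0.16) or 2 (-1.27, 0.0607), EB day 3 replicate 2 (-0.76, 0.218), or any EB day 1, EB day 4 or ML day 1 array (0.0604 to 0.0627), with no filter on dim probes, with the replicate block and with the groups alone.

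The second Etv5 probe (A_51_P323579, chr16:22383406-22383465 in mm9) followed the first (A_52_P631015, chr16:22382377-22382436). It read 1.01 and 0.97 in undifferentiated cells and -2.37 and -2.51 at EB day 4, a change of -3.43 ± 0.31 (adjusted p over all probes 0.000105). It passed the test between EB days 3 and 4 (-2.41, 0.0041) and also between ML days 1 and 3 (-1.5, 0.0178), where the first probe gave -1.05 (adjusted p over all probes 0.0619).

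Etv5 has 2 start sites in the RefSeq table on GRCm38.p6, both on the minus strand, and the 250 bases before each (chr16:22439571-22439820 and chr16:22438369-22438618) are shown because this gene had the widest range and because ETS genes can be targets of ETS factors.
Etv5 start 1: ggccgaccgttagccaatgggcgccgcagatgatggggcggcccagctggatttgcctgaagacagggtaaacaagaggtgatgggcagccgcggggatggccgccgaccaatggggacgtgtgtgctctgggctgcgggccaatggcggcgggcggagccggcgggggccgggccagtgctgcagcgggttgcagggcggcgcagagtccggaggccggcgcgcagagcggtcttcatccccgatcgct
Etv5 start 2: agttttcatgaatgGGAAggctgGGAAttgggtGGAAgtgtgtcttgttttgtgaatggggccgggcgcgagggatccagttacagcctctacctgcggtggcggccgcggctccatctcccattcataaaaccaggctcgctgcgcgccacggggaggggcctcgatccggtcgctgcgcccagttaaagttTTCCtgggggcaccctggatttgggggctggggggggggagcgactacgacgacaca
The first held no GGAA match on either strand and the second held 4. The longer form CCGGAA, found in 12% of all stretches, was in neither, nor in those of Dusp6 and Spry2, and neither was TGANTCA, the AP-1 element, found in 6.75%.

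Etv4, the other ETS gene, had 1 probe and no called difference. Its signal was 2.62 and 1.06 in undifferentiated cells, 2.65 and 2.13 at EB day 1, 2.53 and 2.34 at EB day 3, 1.44 and 0.89 at EB day 4, 2.5 and 2.72 at ML day 1, and 2.01 and 2.44 at ML day 3. EB day 4 lay below all the other differentiated arrays, and the 2 undifferentiated arrays spanned nearly the whole range. Between EB days 3 and 4 Etv4 differed by -1.27 ± 0.45 (adjusted p = 0.1), and this was called without either undifferentiated array (0.0271).

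The spread between the undifferentiated arrays limited the comparisons with these cells. Replicate 1 exceeded replicate 2 by 1.56 in Etv4, 1.49 in Spry4, 1.28 in Spred1 and 1.11 in Spry2, so 4 of 8 genes were at least 2-fold apart, against 12.1% of all genes. The same count was 1 of 8 at ML day 3 (Dusp4), where 18.5% of all genes were that far apart, the most of any group. It was 0 in the other 4 groups (3.53% to 8.44% of all genes). Markers of fibroblasts, a cell type often used as a feeder layer, were also higher in undifferentiated replicate 1, at a summed level of 7.17 against 5.33 in replicate 2 and 2.83 to 4.57 elsewhere. All 8 measured markers of that list were well above background on both undifferentiated arrays, as they were in every other group but EB day 4 (6 of 8). S100a4 was the brightest of them in undifferentiated cells (mean 5.67). Col1a1 was about as high at ML days 1 and 3 (2.57 and 2.71) as in undifferentiated cells (2.43), and Pdgfrb and Twist2 were highest at EB day 4. The part of these markers in the values of the 8 genes was not tested. In bulk RNA fewer cells of a type and less RNA per cell cannot be told apart.

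Without undifferentiated replicate 1, Spry2, Spry4 and Etv4 were called higher at EB day 1 (1.78, 2.02 and 1.33, adjusted p 0.0182 to 0.0404) and at EB day 3 (1.45, 1.51 and 1.37, adjusted p 0.0247 to 0.0428). Spry4 and Etv4 were called at ML day 1 (1.66 and 1.55, adjusted p 0.0318 and 0.0211) and Etv4 at ML day 3 (1.16, 0.0487). Without replicate 2, the Etv4 differences at EB day 1, EB day 3, ML day 1 and ML day 3 turned below 0, and Spry4 and Etv4 were called lower at EB day 4 (-1.7 and -1.46, adjusted p 0.0198 and 0.0162). The direction of Etv4 against undifferentiated cells thus rested on which of the 2 arrays was used.

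**Figure D2:**
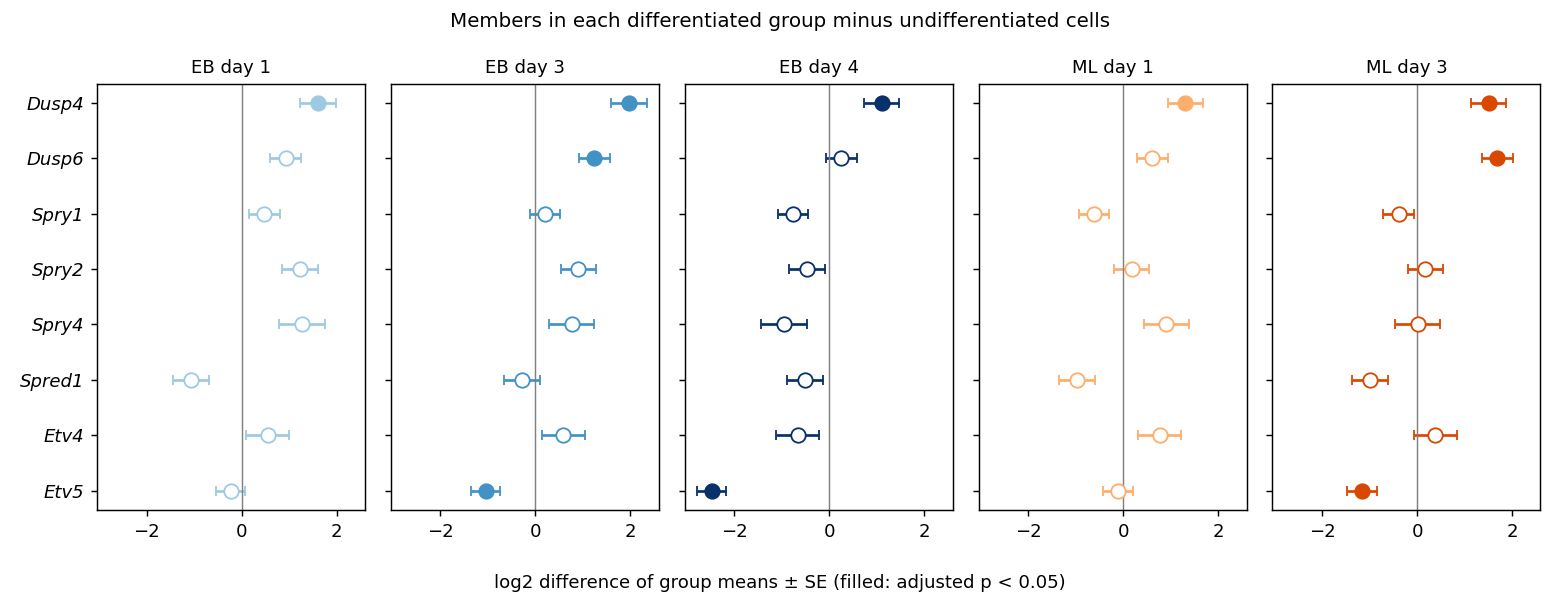
Difference of each differentiated group from undifferentiated cells (x axis: log2 difference ± SE, n = 2 per group) for the 8 genes (rows); filled points passed the test. Dusp4 is filled in all 5 panels, from 1.1 to 1.97, and Etv5 reaches -2.48 at EB day 4.

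Between days within a culture format, 0 of 8 genes were called from EB day 1 to EB day 3 by limma (5.04% of all genes called), and 1 had an unadjusted p under 0.05, Etv5 with -0.82. From ML day 1 to ML day 3 the count was also 0 of 8 (12.1%), with 2 at an unadjusted p under 0.05. These were Dusp6 (1.08 ± 0.33, adjusted p = 0.0626) and Etv5 (-1.05 ± 0.31, adjusted p = 0.0597), both among the 4 of 8 genes with separate arrays (57.9% of all genes). Both passed without ML day 3 replicate 2 (1.4 and -1.48, adjusted p 0.0269 and 0.0109), Dusp6 also with quantile normalization (0.0425) and Etv5 with the mean of its probes (0.0276).

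From EB day 3 to EB day 4, 3 of 8 genes were called, all lower, where 12.5% of all genes were called and 8.62% were called lower. On the probes used for the genes, the 8 means were all lower at day 4, with a median of -1.13 against -0.09 for all genes. The arrays were separate for 7 of 8 (67.5% of all genes). The exception was Spred1, with -0.23, which changed sign with normexp. The second Dusp4 probe gave 0.21. The fit of the 2 groups alone called 0 of the 8. The 10 spike-in probes averaged 1.05 at EB day 3 and -0.13 at EB day 4, as log2 relative to the 75th percentile. The part of this shift in the lower values of the 8 genes was not tested. Over the same step the summed level of stem cell markers went from 7.61 and 7.29 to 5.02 and 5.57, while that of endoderm markers, at 5.98 and 6.02, was 6.05 and 5.67. The summed level of the 3 neural markers went from 3.27 and 2.67 to 2 and 1.62, with 0 of 3 called by limma and 1 at an unadjusted p under 0.05. It mostly followed Nes, with means of 2.96 and 1.78. Sox1 had means of -4.34 and -4.32, and was not well above background on either array of EB day 4. Pax6 was not well above background at either day. The 8 fibroblast markers went from 2.83 and 2.97 to 3.55 and 4.18, with 2 of 8 called, both higher. Of the 8 stem cell markers 6 were called lower, and the mean of Klf4 went up, from 1.83 to 2.64. Their sum mostly followed Dppa5a, the brightest, with means of 7.13 and 4.57. The part of these cell types in the lower values of the 8 genes was not tested.

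**Figure D3:**
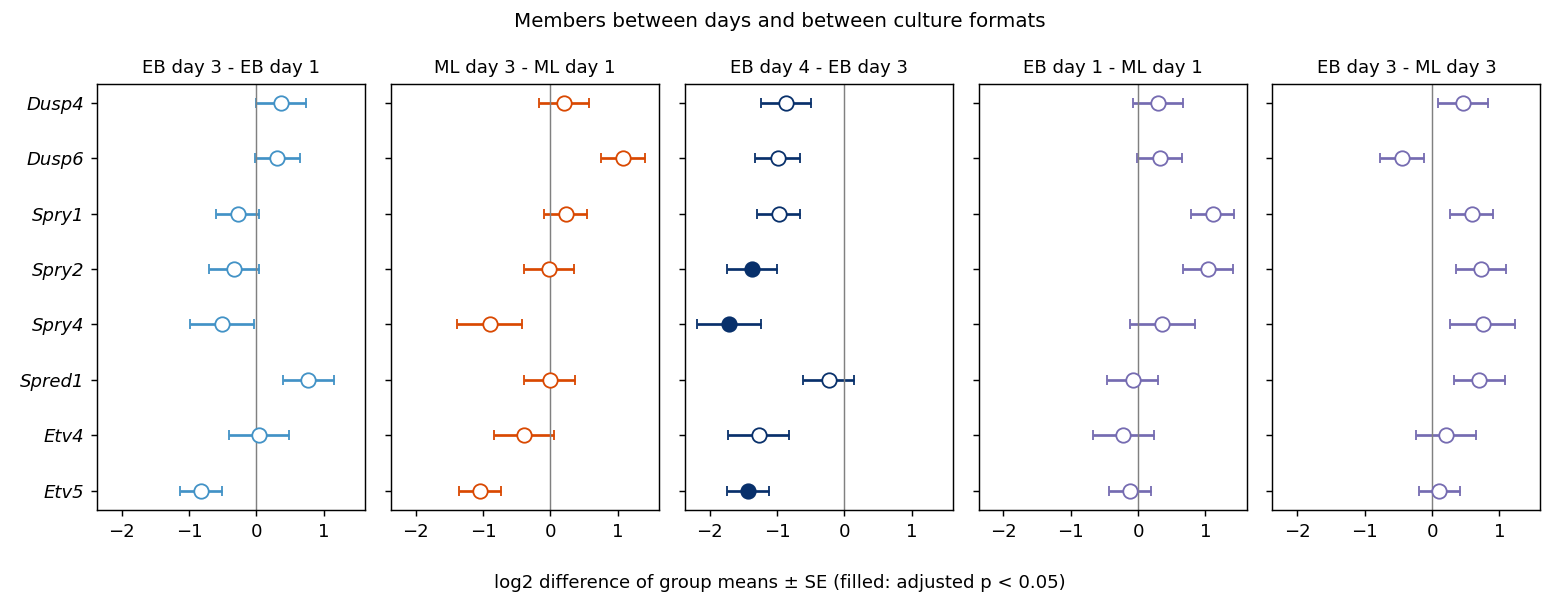
Differences between days within a format and between EB and ML on the same day (x axis: log2 difference ± SE, n = 2 per group) for the 8 genes (rows); filled points passed the test. Spry2, Spry4 and Etv5 are filled for EB day 4 minus EB day 3, at -1.37, -1.71 and -1.43, and all 8 points of that panel lie below 0.

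Between formats on the same day, limma called 0 of 8 genes at day 1 (0.065% of all genes) and 0 of 8 at day 3 (3.09%). At day 1, 2 had an unadjusted p under 0.05: Spry1 and Spry2 were 1.11 and 1.04 higher in EB than in ML (95% intervals 0.39 to 1.83 and 0.2 to 1.89, adjusted p 0.313 and 0.427), with separate arrays. The arrays of EB and ML were separate for 5 of 8 genes at day 1 (52.1% of all genes) and for 3 of 8 at day 3 (40.2%). At day 3 no gene had an unadjusted p under 0.05. The 3 genes with separate arrays there were Spry2, Spry4 and Spred1, with differences of 0.73, 0.75 and 0.7. The second Spry2 probe gave -0.04 at day 1. The change from day 1 to day 3 in EB minus that in ML was called for 0 of 8 genes (0.227% of all genes; 0 at an unadjusted p under 0.05), with Dusp6 at -0.77 (95% interval -1.81 to 0.27) and Spred1 at 0.78 (-0.43 to 1.99). These intervals are wide enough to hold a 2-fold difference in either gene.

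**Figure D4:**
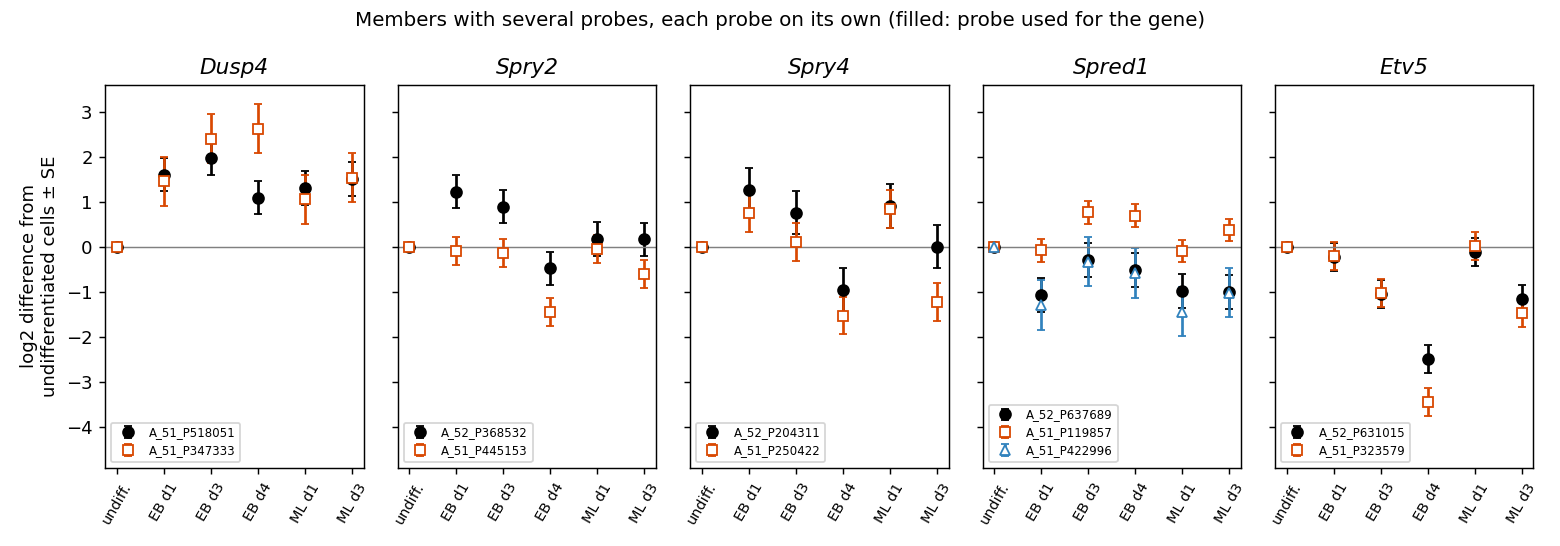
Difference from undifferentiated cells (y axis: log2 ± SE, n = 2 per group) of each probe of the 5 genes with several probes, by group (x axis), with the probe used for the gene filled. The 2 Etv5 probes fall together to -2.48 and -3.43 at EB day 4, the Dusp4 probes part there at 1.1 and 2.63, and the dim probes A_51_P250422 and A_51_P422996 include groups not well above background.

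Across the 12 arrays the 8 genes fell into patterns that shared some members. Pearson's r was highest for Spry2 with Spry4 (0.88, Spearman's rho 0.88), then Spry4 with Etv4 (0.86, 0.73) and Dusp4 with Dusp6 (0.73, 0.69). It was lowest for Dusp4 with Spred1 (-0.46, -0.35). The 12 arrays are pairs within groups and share slides and scan days, so these are descriptions. Among all genes, the closest to Etv5 were Nkx2-6 (0.988), Dppa2 (0.984) and Mkrn1 (0.983), the closest to Spry4 was Foxd3 (0.96), to Dusp4 Rbfox1 (0.957), and to Dusp6 Lemd3 (0.952) and Mapk4 (0.948). Spry4 was the second closest to Spry2 (0.875), after Zfand5 (0.886). The closest to Etv4 with a gene symbol was Kcnj8 (0.934), to Spry1 Abca2 (0.904) and to Spred1 Mylk (0.884).

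The cascade that drives these genes was read from 27 listed genes, 26 of them measured. Against undifferentiated cells 1 was called higher and 2 lower at EB day 1, 1 and 2 at ML day 1, 2 and 5 at EB day 3, 3 and 4 at ML day 3, and 6 and 4 at EB day 4, with medians of 0 to 0.21. The shares of all genes called in these comparisons (13.2%, 17.8%, 23.2%, 23.1% and 40.5%) come to 3.44, 4.62, 6.03, 6.01 and 10.5 of 26 genes, so the cascade counts were near or below them. Map2k1, which encodes the ERK kinase MEK1, was lower at EB day 1 (-1.59 ± 0.33, adjusted p = 0.0198), ML day 1 (-1.32, 0.0285), EB day 3 (-1.41, 0.0167) and ML day 3 (-1.64, 0.00931). Gab1, a docking protein that links receptors to RAS, was lower at EB day 3 (-1.86, 0.00244), ML day 3 (-1.65, 0.00431) and EB day 4 (-2.44, 0.000269). Hras was higher at EB day 1 (1.11, 0.0482) and ML day 1 (1.18, 0.0339). From EB day 3 to day 4, where the 8 means went down, limma called 0 of the 26 (5 at an unadjusted p under 0.05; 12.5% of all genes were called), with a median of 0.12.

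Of a list of 29 other feedback and ETS genes, which also holds genes of other kinds such as Myc, Ccnd1 and Fosl1, 26 were measured. Against undifferentiated cells 2 were called higher and 0 lower at EB day 1, 0 in either direction at ML day 1 (6 at an unadjusted p under 0.05), 4 and 2 at EB day 3, 6 and 1 at ML day 3, and 9 and 5 at EB day 4. Set against the same shares of 26 genes, the count was lower at both day 1 comparisons, near at day 3 and 14 against 10.5 at EB day 4. Il17rd, which encodes the FGF signalling inhibitor SEF, was higher at EB day 1 (1.39 ± 0.24, adjusted p = 0.0107) and rose from ML day 1 to ML day 3 (1.44, 0.00693). Flrt3, a membrane partner of FGF receptors, rose from EB day 1 to EB day 3 (2.38, 0.00992). Spred3, a relative of Spred1, was higher at EB day 3 (2.39, 0.0249) and ML day 3 (2.75, 0.0146) than in undifferentiated cells. Between EB days 3 and 4, 3 of the 26 were called higher and 1 lower, where the share of all genes comes to 3.25, with a median of -0.07. Dusp9, another phosphatase of ERK, rose by 1.36 (0.0299) and the ETS gene Ets1 by 2.68 (0.0225) while Spry2, Spry4 and Etv5 fell.

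Of 17 listed FGF ligands and receptors 15 were measured, and Fgf2 and Fgf4 were not among the genes tested. Fgf5 and Fgf8 were higher than in undifferentiated cells at EB day 3 by 6.76 and 5.13 (adjusted p 0.000228 and 0.000285). Of the 15, 5 were called higher and 4 lower there, where 23.2% of all genes come to 3.48 of 15. Of 8 immediate early genes, which respond to ERK within minutes, 3 were called lower at EB day 1, among them Fos (-4.34 ± 0.57, adjusted p = 0.00511). At ML day 1, 5 were called lower and 1 higher, with Fos at -4.42 (0.00452). Dusp4 was called higher in the same comparisons, on the probe used for the gene. The shares of all genes called there, 13.2% and 17.8%, come to 1.06 and 1.42 of 8. Against undifferentiated cells 2 of the 8 were called lower and 0 higher at EB day 3 (share 1.86). At ML day 3 and EB day 4, 2 were lower and 1 higher (shares 1.85 and 3.24). From ML day 1 to ML day 3, 3 of the 8 were called higher and 0 lower (share 0.966): Fos by 2.14, Jun by 2.04 and Junb by 1.79. From EB day 1 to EB day 3, 0 of the 8 were called (share 0.403).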

How the data were processed

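Total RNA was amplified and labelled as cRNA and hybridised to 12 one-colour Agilent mouse arrays, 1 sample per array, per the labels' protocols. Spot intensity in the scanner output was background-subtracted by Agilent's Feature Extraction per the file headers, which also name the spot flags, the other kind of value used. The submitters' processing notes give version 9.5.1.1, whereas per the file headers it was 10.5.1.1 (undifferentiated cells), 10.7.1.1 (EB day 4) or 10.7.3.1 (all others). The values deposited for the whole series are also intensity, scaled by the authors to equal distributions, and served as an alternative.

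Here each of 43379 non-control spots was expressed as log2 of its processed signal over the 75th percentile of the array. Between 51 and 172 outlier spots of an array were set aside, and saturation was flagged nowhere. Probes above background by the software's flag on both arrays of any 1 group were kept, 26174 of 41142. The probe of highest mean stood for its gene, and 18475 genes were tested. Probe positions are those of the files (mm9), and promoter sequences are from a RefSeq collection (GRCm38.p6) with entries for 6 of the 9 listed genes. Limma 3.58.1 in R 4.3.3, next to data.table of version 1.17.8, was fitted with a mean for each of 6 groups on the 12 arrays together, with 6 residual and 3.19 prior degrees of freedom. Its moderated statistic, two-sided, gave p-values for 11 comparisons, each adjusted by Benjamini-Hochberg and called at 0.05. The number of arrays limits the precision. For single probes the adjustment ran over all 26174 probes.

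The genes, lists and tests were chosen with earlier results of these data known. Genes outside the 9 were named by rule: up to 3 called members of each pathway list per comparison by size of change, and the 3 genes with the highest Pearson r to each of the 8 over the arrays. Not every gene the rule selects is named. Alternatives were normexp background (offset 50), the authors' values, quantile normalization, omitting or tightening the filter on dim probes, averaging the probes of a gene, a replicate block, the compared groups alone, and leaving out each array. The scan day 2 arrays alone and each probe on its own were chosen once the data had been seen. The difference between clones, compared between groups, correlated at -0.154 to 0.219 across genes, over 0.1 in 2 of 15 pairs, so the clone number was not used as pairing. On data simulated for EB day 3 against EB day 1 over 18475 genes, limma found 20 of 67 genes given a log2 change of 1, 48 of 67 given 2 and 59 of 66 given 3, along with 10 genes given none. Plots used matplotlib 3.10.9 in Python 3.11.15.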

Additional observations from a re-analysis of the deposited data

How the results depend on the processing

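Over the 8 genes, 11 comparisons and their alternative settings, 1676 of 1800 values kept their side of the threshold, 83 called values lost it, 41 gained it, and no called value changed sign. Among values called in neither fit, 51 changed sign, the largest at 0.77 in the main analysis (Etv4 at ML day 1 without undifferentiated replicate 2). Only Dusp4 at EB day 3 and Etv5 at EB day 4, both against undifferentiated cells, were called in all 20 settings of their comparison. The cause of the changes was not tested, beyond the fewer arrays and residual degrees of freedom of the groups fitted alone.

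Counts of called genes of the 8 moved as follows. For EB day 1 against undifferentiated cells 1 became 2 with normexp, the strict filter and the replicate block, and 0 with the mean of probes. For ML day 1, 1 became 0 with quantile normalization, the authors' values, no filter, the mean of probes and the groups alone. With the groups alone, 3 became 1 at EB day 3, 0 at ML day 3, and 0 for EB day 4 against EB day 3. At EB day 3 against undifferentiated cells 3 became 2 with quantile normalization, no filter and the replicate block, and for EB day 4 against EB day 3 with quantile normalization and the authors' values. For EB day 4 against undifferentiated cells, 2 became 1 with normexp, quantile normalization and the authors' values, and 4 with the mean of probes, which added Spry2 (-0.96) and Spry4 (-1.23). For ML day 3 against ML day 1, 0 became 2 with normexp, the strict filter and the mean of probes, and 1 with quantile normalization, the authors' values and the replicate block. With single arrays left out the counts ran from 0 to 3 at EB day 1, 0 to 2 at ML day 1, 1 to 5 at EB day 3, 1 to 3 at ML day 3 and 1 to 4 at EB day 4 against undifferentiated cells, from 0 to 2 for ML day 3 against ML day 1, from 0 to 4 for EB day 4 against EB day 3, and stayed at 0 in the other 4 comparisons. The replicate block, with the clone number as block, lost Etv5 at EB day 3 and added Spry2 at EB day 1 (1.23, adjusted p = 0.0472) and Dusp6 from ML day 1 to ML day 3 (1.08, 0.0458). It changed no other call among the 8. The fit of the scan day 2 arrays, chosen after seeing the data, called 0 of 8 in each comparison it holds, as did the main analysis.

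Over all genes, the fit of the compared groups alone called 1606 of 18475 at EB day 3 against undifferentiated cells, where the main analysis called 4287, and 192 for EB day 4 against EB day 3, where the main analysis called 2309. It called 973 at ML day 3 against undifferentiated cells (4274 in the main analysis) and 363 at ML day 1 (3281). The fits with an array left out changed the calls over all genes as well. Without the filter on dim probes, 14628 genes were called at EB day 4 against undifferentiated cells in place of 7476, and 8485 for EB day 4 against EB day 3. That fit also tested genes whose probes were all dim, so its counts are not out of the same 18475 genes. Signal over background limits the dimmest probes of Spred1 and Spry4, which were not well above background in several groups, and 2 arrays per group limit all 8 genes.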
